A study of Mus musculus with 14 samples.

Results

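The molecular clock of the mouse ventricle and the transcription factors it drives were followed through 10 genes: Arntl, Npas2, Per1, Per2, Per3, Nr1d1, Nr1d2, Dbp, Tef and Hlf. The genes were listed by name, as components of the clock or as its proline and acidic amino acid-rich basic leucine zipper (PAR bZIP) outputs. All 10 occur among the 24972 genes of the deposited table, and all 10 are among the 13212 genes that were tested, which needed values of 10 or more in 3 or more samples. Polyadenylated RNA was sequenced from ventricles of male C57BL/6N mice operated on at 9 to 10 weeks of age. TAC+GFP hearts had transverse aortic constriction (TAC), an operation that imposes pressure overload on the left ventricle, and received an adeno-associated virus (AAV2/9) with GFP; Sham+GFP hearts had the sham operation and the same virus. TAC+JP2NT and Sham+JP2NT hearts had the same operations and received AAV2/9 with JP2NT, an N-terminal part of junctophilin-2, a protein that ties the sarcoplasmic reticulum of heart muscle cells to the cell membrane. Virus was given by tail vein 2 weeks after surgery at 1e12 viral genomes in 100 ul, and tissue was taken 6 weeks later. Only TAC mice whose ejection fraction was 40 to 60% at 2 weeks entered the study (30 mice, beside 10 sham mice). The libraries number 4 for TAC+GFP, 3 for Sham+GFP, 4 for TAC+JP2NT and 3 for Sham+JP2NT; no source used here gives the promoter of the transgene, whether each library is a separate mouse, or the time of day of harvest.

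The clock is a feedback loop that runs in nearly every cell with a period of about a day. BMAL1, encoded by Arntl, pairs with CLOCK or its relative NPAS2 and activates genes through E-box sequences; among them are the Per genes, whose products repress that pair, and Nr1d1 and Nr1d2, whose REV-ERB proteins repress Arntl through ROR response elements (RRE). DBP, TEF and HLF bind D-box sequences and carry the rhythm to metabolic genes. In mouse tissues Arntl and Npas2 therefore peak in a different part of the day from Nr1d1, Dbp and Per3, and in rodent heart the clock is known to shape metabolism and excitability by time of day.

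Promoters of 9 of the 10 genes are in the RefSeq table used (GRCm38.p6, 250 bases before to 50 after each annotated start, 12 windows), and each was searched on both strands for an E-box (CACGTG), a D-box (TTANGTAA) and an RRE (A, 2 free bases, T, 1 free base, then GGTCA). Of all 32851 windows of the table, 7.15% hold the E-box, 2.32% the D-box and 2.46% the RRE. The E-box occurs in windows of 2 members, Per1 and Tef, the D-box in 1, Per3, and the RRE in 1, Arntl; no match overlaps another. The shares of the table are per window, whereas a member with a window has 1 or 2. Of the E-box genes, Per1 was higher and Tef lower in TAC+GFP than in Sham+GFP. For each gene with a match 1 such window is shown. Capitals mark the match, and for Tef the window of the upstream start is shown. A match describes the letters, not binding.
Arntl, chr7:113207261-113207560, plus strand, 1 RRE: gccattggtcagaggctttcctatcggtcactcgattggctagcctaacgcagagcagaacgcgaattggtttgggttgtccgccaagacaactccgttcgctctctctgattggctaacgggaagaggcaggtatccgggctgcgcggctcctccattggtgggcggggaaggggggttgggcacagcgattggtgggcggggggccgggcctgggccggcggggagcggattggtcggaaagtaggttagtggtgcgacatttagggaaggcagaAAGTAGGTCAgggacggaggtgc
Per1, chr11:69098699-69098998, plus strand, 1 E-box: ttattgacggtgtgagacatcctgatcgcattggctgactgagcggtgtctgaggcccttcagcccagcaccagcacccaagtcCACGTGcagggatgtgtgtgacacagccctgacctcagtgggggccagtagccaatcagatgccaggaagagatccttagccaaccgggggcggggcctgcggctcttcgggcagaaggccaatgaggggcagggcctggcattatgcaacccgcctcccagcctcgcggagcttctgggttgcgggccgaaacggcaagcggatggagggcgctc
Per3, chr4:151044616-151044915, minus strand, 2 D-boxes: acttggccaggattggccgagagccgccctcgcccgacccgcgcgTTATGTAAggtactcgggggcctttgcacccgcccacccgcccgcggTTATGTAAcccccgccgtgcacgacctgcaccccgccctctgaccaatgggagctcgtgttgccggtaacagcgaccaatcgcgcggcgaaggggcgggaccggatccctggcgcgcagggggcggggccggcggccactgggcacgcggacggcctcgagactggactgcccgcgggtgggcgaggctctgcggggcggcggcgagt
Tef, chr15:81802423-81802722, plus strand, 1 E-box: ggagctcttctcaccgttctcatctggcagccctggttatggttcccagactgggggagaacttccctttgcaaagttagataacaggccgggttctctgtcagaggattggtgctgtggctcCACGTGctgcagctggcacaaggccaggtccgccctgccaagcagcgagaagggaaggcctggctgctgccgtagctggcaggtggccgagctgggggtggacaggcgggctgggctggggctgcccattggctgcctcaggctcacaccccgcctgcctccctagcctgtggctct

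The libraries held an estimated 8650188 to 14460617 gene-assigned reads. The variance between Sham+JP2NT replicates 1 and 2 was 1.22 times counting noise, against 1.72 to 7.84 times in the other pairs within groups. They were averaged into 1 sample, so 13 samples entered the tests and n = 2 in that group. Jph2 was not higher in JP2NT hearts: its log2 difference was 0.04 between TAC+JP2NT and TAC+GFP and -0.18 between Sham+JP2NT and Sham+GFP (limma adjusted p = 0.715 and 0.998). Heart muscle markers were abundant in every library: the summed value of 8 of them was 480128 to 568198 in TAC+GFP against 865967 to 895749 in Sham+GFP libraries, and 527654 to 722961 in TAC+JP2NT against 887506 to 895323 in Sham+JP2NT libraries. Most of the difference in the sum is Myh6, the main adult myosin heavy chain of mouse heart, which averaged 169431 ± 24039 in TAC+GFP and 473831 ± 17657 in Sham+GFP (n = 4 and 3). The other markers did not move as one: Ttn was higher in TAC+GFP (log2 0.56, adjusted p = 0.000499), Tnni3, Ryr2 and Pln were lower, and Tnnt2 (-0.08), Actn2 (-0.11) and Myl2 (-0.26) were not called. The part of these differences in those described next was not tested; in ventricle tissue, fewer cells of a type and less RNA per cell cannot be told apart. Values below are deposited gene values rescaled jointly over all libraries.

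Under the GFP virus, pressure overload came with higher Arntl and Per1 and with lower Per3, Dbp, Tef and Hlf. These are 6 of the 10 genes (limma, adjusted p under 0.05 over all genes tested), 2 higher and 4 lower. The share is near the background, since 48.1% of all genes tested were called in this comparison (23.3% higher and 24.8% lower). The median log2 fold change of the 10 genes was -0.15, against -0.01 for all genes tested. The libraries of 4 of the 10 genes did not overlap between the groups, Per1 higher and Nr1d1, Tef and Hlf lower, against 53.1% of all genes tested (25.3% higher and 27.8% lower).

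Of the activators, Arntl (chromosome 7, 113207465 to 113314126, plus strand, mm10) encodes the obligate partner BMAL1. Its value was 233, 190.1, 90.5 and 58.6 in TAC+GFP libraries, against 73.9, 43.1 and 38.6 in Sham+GFP libraries. TAC+GFP replicates 1 and 2 lay far above all shams, while replicate 4 lay below Sham+GFP replicate 1, so the groups overlapped. The log2 fold change was 1.30 ± 0.49 (SE; adjusted p = 0.0403), a 2.46-fold rise. Npas2 (chromosome 1, 39193731 to 39363236, plus strand), which can stand in for CLOCK, had 74.9, 75.6, 36.1 and 48.1 in TAC+GFP against 36.3, 36.7 and 33.9 in Sham+GFP. The same 2 TAC libraries were high and replicate 3 lay within the sham range. Its difference of 0.64 ± 0.26 just missed the threshold (adjusted p = 0.0515).

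The 3 Period genes, which encode the repressors of the loop, did not move together. Per1 (chromosome 11, 69095217 to 69109960, plus strand), also an immediate early and glucocorticoid-responsive gene, had 1159.7, 1488, 958 and 703 in TAC+GFP against 424, 504 and 537 in Sham+GFP. Every TAC library lay above every sham library, and the rise was 2.13-fold (log2 1.09 ± 0.23, adjusted p = 0.00141). Per3 (chromosome 4, 151003652 to 151044665, minus strand) went the other way, with 113, 138, 244 and 333 in TAC+GFP against 279, 365 and 448 in Sham+GFP. TAC+GFP replicate 4 lay inside the sham range and the other TAC libraries below it, and the gene fell 1.89-fold (log2 -0.92 ± 0.33, adjusted p = 0.0325). Per2 (chromosome 1, 91415982 to 91459324, minus strand) had 252, 311, 329 and 240.4 in TAC+GFP against 180.3, 256 and 298 in Sham+GFP, overlapping groups with a log2 difference of 0.23 (95% interval -0.26 to 0.71; adjusted p = 0.437).

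Neither REV-ERB repressor of Arntl was called with overload, although the libraries of Nr1d1 did not overlap. Nr1d1 (chromosome 11, 98767932 to 98775333, minus strand) had 1314, 1311, 1148 and 1288 in TAC+GFP against 1639.8, 1616 and 1589 in Sham+GFP, and its log2 difference of -0.35 ± 0.14 was not called (adjusted p = 0.0508) under a spread shared with the more variable TAC+JP2NT group. Without TAC+JP2NT replicate 3, a library of neither compared group, the difference was called (limma adjusted p = 0.000636). That run also redid the scaling, the filter and the adjustment, so the part of the spread alone was not tested. Over 24 alternative runs (other processing, or 1 library left out) it was called in 8. Nr1d2 (chromosome 14, 18204054 to 18239127, minus strand) had 792, 994, 1108 and 1101 in TAC+GFP against 825, 926 and 1138 in Sham+GFP, with a difference of 0.05 (95% interval -0.21 to 0.32; adjusted p = 0.749). Nr1d1 overlaps Thra by 1075 bases on the opposite strand, Dbp overlaps Sphk2 by 737 bases likewise, and the whole of Per3 lies within the annotated span of Camta1. The libraries were stranded, but whether counting used strand is not given, so reads of Thra and Sphk2 may not be fully separated. Camta1 lies on the same strand as Per3, so strand would not separate their reads. The mean deposited value was 1452 for Camta1 and 352 for Per3.

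All 3 PAR bZIP genes were lower in TAC+GFP. Hlf (chromosome 11, 90336536 to 90390895, minus strand) differed most among the 10 genes, with 100.2, 113, 183 and 221 in TAC+GFP against 301, 443 and 540.1 in Sham+GFP. No TAC library reached the lowest sham, and the fall was 2.83-fold (log2 -1.50 ± 0.31, adjusted p = 0.00111). Tef (chromosome 15, 81802421 to 81826863, plus strand) had 1401, 1483, 1734 and 1919.6 in TAC+GFP against 2419, 2782 and 3087 in Sham+GFP. It was the least variable of the 3, again without overlap, and fell 1.69-fold (log2 -0.76 ± 0.14, adjusted p = 0.000535). Dbp (chromosome 7, 45705088 to 45710203, plus strand) had 356, 392.3, 877 and 935 in TAC+GFP against 819, 1034 and 1358 in Sham+GFP. Its TAC libraries fell into a low pair, replicates 1 and 2, and a pair inside the sham range, and the group difference was 1.80-fold lower (log2 -0.85 ± 0.29, adjusted p = 0.0249). The calls of Per1, Tef and Hlf held without any single library. Those of Arntl, Per3 and Dbp were lost without TAC+GFP replicate 1 or 2, or Sham+GFP replicate 2 or 3: the adjusted p was then 0.108 to 0.135 for Arntl, 0.0816 to 0.124 for Per3 and 0.0603 to 0.115 for Dbp, and 3 genes remained called. With no filter on low values Arntl was also not called (adjusted p = 0.0572).

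**Figure D1:**
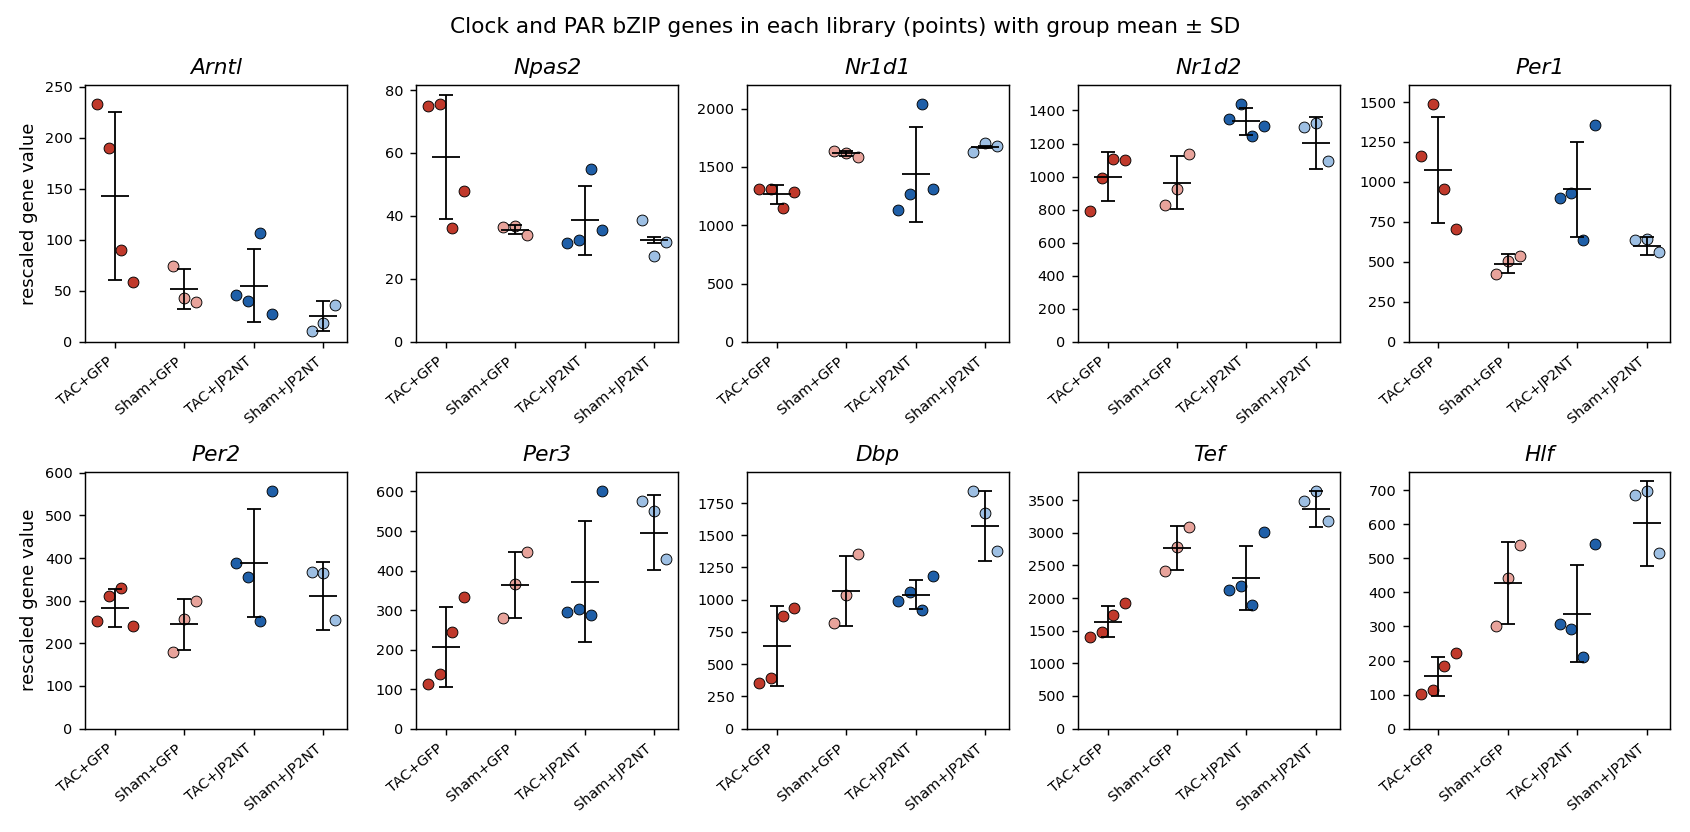
Rescaled gene value (y axes, from 0) of each of the 10 genes in every library (points) by group, with the mean and SD of the samples; Sham+JP2NT replicates 1 and 2 were averaged for its mean. For Tef and Hlf no TAC+GFP library reached a Sham+GFP library, whereas for Arntl and Dbp TAC+GFP replicates 1 and 2 stand apart and the other TAC+GFP libraries lie in or near the Sham+GFP range.

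Under the JP2NT virus the overload comparison shares no library with that under GFP, and 1 of the 10 genes was called, against 31.9% of all genes tested (16.1% higher and 15.8% lower). The libraries of Dbp and Tef did not overlap, both lower, against 43.5% of all genes tested (21.2% higher and 22.3% lower). Tef had 2127, 2183, 1891 and 3016 in TAC+JP2NT against 3489, 3645 and 3175 in Sham+JP2NT. Every TAC library lay below every sham, and the fall was 1.48-fold (log2 -0.57 ± 0.16, adjusted p = 0.0156). Without Sham+JP2NT replicate 3 the adjusted p was 0.0512 and no gene was called by limma, with 3 at an unadjusted p under 0.05. Without TAC+GFP replicate 4, TAC+JP2NT replicate 3 or TAC+JP2NT replicate 4 the count was 2, 3 and 2.

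The other differences under JP2NT had the signs seen under GFP for all 9 genes, but none passed. Hlf had 307, 293, 209 and 542 in TAC+JP2NT against 685, 699 and 514 in Sham+JP2NT (log2 -0.91 ± 0.35, adjusted p = 0.0611). Replicate 4 of TAC+JP2NT was the only TAC library inside the sham range, and without it Hlf was called at -1.18 (adjusted p = 0.00829). Leaving out any 1 library gave -1.18 to -0.72, and Hlf was called in 5 of 24 alternative runs. Dbp had 993, 1056, 922 and 1184 in TAC+JP2NT against 1845, 1675 and 1377 in Sham+JP2NT. The groups did not overlap, yet the difference of -0.59 ± 0.33 was not called (adjusted p = 0.187). The shams had n = 2, and the spread was shared with TAC+GFP, where the SD of Dbp was 308 against 111 in TAC+JP2NT. The part of each was not tested. Per1 had 902, 928, 635 and 1355 in TAC+JP2NT against 639.8, 644 and 561 in Sham+JP2NT. TAC+JP2NT replicate 3 lay within the shams and the rest above them (log2 0.62 ± 0.26, adjusted p = 0.0875). Without that replicate the difference was 0.78 (adjusted p = 0.0293). Leaving out any 1 library gave 0.42 to 0.78, and Per1 was called in 3 of 24 alternative runs. Arntl had 45.5, 40.5, 107 and 27.6 in TAC+JP2NT against 11.0, 18.3 and 35.7 in Sham+JP2NT (log2 1.04, 95% interval -0.15 to 2.23; adjusted p = 0.17). The sham values correspond to about 9.09, 16.1 and 27.1 reads, so counting error alone is large there. For Per3, with 296, 303, 287 and 602 in TAC+JP2NT against 576, 550.2 and 428 in Sham+JP2NT, the difference was -0.48 (95% interval -1.28 to 0.32). Per2 had 388, 355, 252 and 558 in TAC+JP2NT against 368, 365 and 255 in Sham+JP2NT, with a difference of 0.28 (95% interval -0.27 to 0.84). Npas2 had 31.3, 32.5, 54.9 and 35.5 in TAC+JP2NT against 38.8, 27.4 and 31.7 in Sham+JP2NT, a difference of 0.21 (95% interval -0.41 to 0.83). The TAC libraries of Per2 spread around the shams. For Npas2, TAC+JP2NT replicate 3 lay above the shams and the other TAC libraries within their range. Nr1d1 had 1130.1, 1268, 2039 and 1310.2 in TAC+JP2NT against 1630.4, 1702 and 1677 in Sham+JP2NT, and replicate 3 alone stood above all shams. Its difference was -0.26 (adjusted p = 0.243), and -0.45 (adjusted p = 0.00144) without that replicate. Leaving out any 1 library gave -0.45 to -0.17, and Nr1d1 was called in 1 of 24 alternative runs. Nr1d2 had 1347, 1439, 1246 and 1307 in TAC+JP2NT against 1302, 1323 and 1092 in Sham+JP2NT, a difference of 0.15 (95% interval -0.14 to 0.45).

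Between the viruses in overloaded hearts, Hlf, Tef and Nr1d2 were higher in TAC+JP2NT than in TAC+GFP. These 3 genes compare with 6.15% of all genes tested that were called (2.75% higher and 3.40% lower; 363 and 449 genes, or 226 and 1191 with the deposited values taken as they are). Hlf was 2.16-fold higher (log2 1.11 ± 0.29, adjusted p = 0.034), with a mean of 338 ± 143 in TAC+JP2NT and 154 ± 57.3 in TAC+GFP (SD, n = 4 each). TAC+JP2NT replicate 3, at 209, lay below TAC+GFP replicate 4, at 221. Tef averaged 2304 ± 491 in TAC+JP2NT and 1634 ± 237 in TAC+GFP (log2 0.48 ± 0.13, adjusted p = 0.0425). Nr1d2 averaged 1335 ± 81.1 in TAC+JP2NT and 999 ± 147 in TAC+GFP, the one gene of the 10 whose libraries did not overlap here (log2 0.43 ± 0.11, adjusted p = 0.0391); 10.7% of all genes tested did not overlap (5.25% higher and 5.41% lower). Differences of Arntl (-1.34 ± 0.45, adjusted p = 0.0923), Per3 (0.90 ± 0.31, adjusted p = 0.0924) and Dbp (0.83 ± 0.27, adjusted p = 0.0797) were as large but were not called, and Npas2 stood at -0.56 (adjusted p = 0.169), Per2 at 0.41 (adjusted p = 0.273), Per1 at -0.17 (adjusted p = 0.69) and Nr1d1 at 0.15 (adjusted p = 0.556). This comparison shares the TAC+GFP libraries with the overload comparison under GFP, so the opposite signs in the 2 comparisons are not independent. None of the 10 genes was called by limma without TAC+GFP replicate 1 or 2, without TAC+JP2NT replicate 1, 2 or 4, or without Sham+GFP replicate 2 (6 or 7 then had an unadjusted p under 0.05). Counts were 5, 6 and 4 without TAC+GFP replicate 3, TAC+GFP replicate 4 and TAC+JP2NT replicate 3, and 2 without Sham+GFP replicate 1 or 3 or Sham+JP2NT replicate 3. Some cell markers also differed here: Abcc9 (pericytes and smooth muscle, log2 0.57, adjusted p = 0.000734) and Pln (heart muscle, 0.31, adjusted p = 0.0315) were higher in TAC+JP2NT, and Egfl7 (endothelium, -0.43, adjusted p = 0.0091) and Nppa (atrial, and induced in stressed ventricle, -1.46, adjusted p = 0.00868) were lower. Their part in the differences of the 10 genes was not tested.

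**Figure D2:**
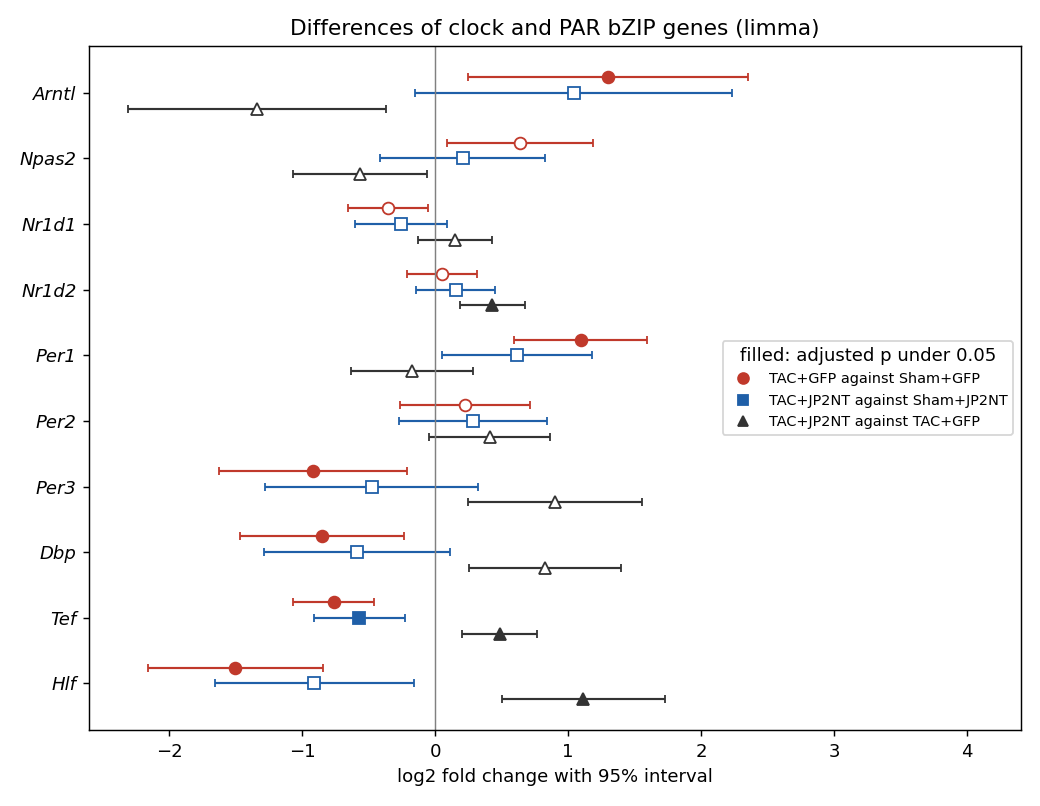
Log2 fold change (x axis) with its 95% interval for each gene in 3 comparisons; filled symbols passed an adjusted p under 0.05. Hlf, Tef, Dbp and Per3 lie left of 0 in both overload comparisons and right of 0 for TAC+JP2NT against TAC+GFP, and Arntl is the mirror image, with wide intervals for the genes that vary most between libraries.

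Between Sham+JP2NT and Sham+GFP, limma called none of the 10 genes and 0 of all 13212 genes. Of the 10 genes, 1 had an unadjusted p under 0.05. The libraries of 4 of the 10 genes did not overlap, against 21.9% of all genes tested (8.55% higher and 13.3% lower). Per1, Dbp and Tef stood higher in Sham+JP2NT, and Arntl lower. Sham+JP2NT replicates 1 and 2 count here as separate libraries, although they entered the tests as 1 sample. Arntl averaged 25.2 ± 14.9 in Sham+JP2NT (n = 2) and 51.9 ± 19.2 in Sham+GFP (n = 3), a log2 difference of -1.08 (95% interval -2.33 to 0.17), and Dbp averaged 1568 ± 271 in Sham+JP2NT and 1070.4 ± 271 in Sham+GFP, a difference of 0.57 (95% interval -0.17 to 1.31). These intervals include differences as large as those of overload. The interaction of surgery and virus called none of the 10 genes (0 had an unadjusted p under 0.05; 0.0757% of all genes tested were called, 0.0378% in each direction), so for no gene was the overload difference shown to depend on the virus. From the highest to the lowest mean, Dbp, Tef and Hlf ran Sham+JP2NT, Sham+GFP, TAC+JP2NT, TAC+GFP, and Arntl ran the reverse. TAC+JP2NT and Sham+GFP, neighbours in that order, overlapped in all 4 genes.

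In Arntl, Per3, Dbp, Tef and Hlf, libraries of 1 group differed from each other along the same line as the groups did. The value of Dbp divided by that of Arntl in a library does not depend on scaling between libraries (it is not per length, so it compares libraries only). It was 1.53, 2.06, 9.69 and 16 in TAC+GFP, against 11.1, 24.0 and 35.2 in Sham+GFP. It was 21.8, 26.1, 8.61 and 42.9 in TAC+JP2NT, against 168, 91.3 and 38.5 in Sham+JP2NT. The ratio varied several-fold within every group, and TAC+GFP replicate 4 lay above the lowest Sham+GFP library. When each sample was set against its own group mean on the log2 scale, Arntl ran opposite to Per3, Dbp, Tef and Hlf. Pearson r was -0.94 to -0.84 over 13 samples, and these 4 ran together (r from 0.76 to 0.98). Per1 had r from -0.31 to 0.26 with these genes and Arntl, but its direction differed between groups. In TAC+GFP, Per1 and Arntl both lay above the group mean in replicates 1 and 2 and below it in replicates 3 and 4. In TAC+JP2NT replicates 3 and 4, Per1 and Arntl lay on opposite sides of the group mean. Of the rest of the 10 genes, Npas2 (r = 0.72) and Nr1d1 (r = 0.56) ran with Arntl, and Per2 (r = -0.63) and Nr1d2 (r = -0.74) against it. The r of Nr1d1 leans on TAC+JP2NT replicate 3, which deviated by 0.54 in Nr1d1 and by 1.13 in Arntl. All other samples deviated by -0.31 to 0.06 in Nr1d1. The overload differences of Nr1d1 had the sign opposite to those of Arntl. The 13 points share 4 group means and these values are a description.

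**Figure D3:**
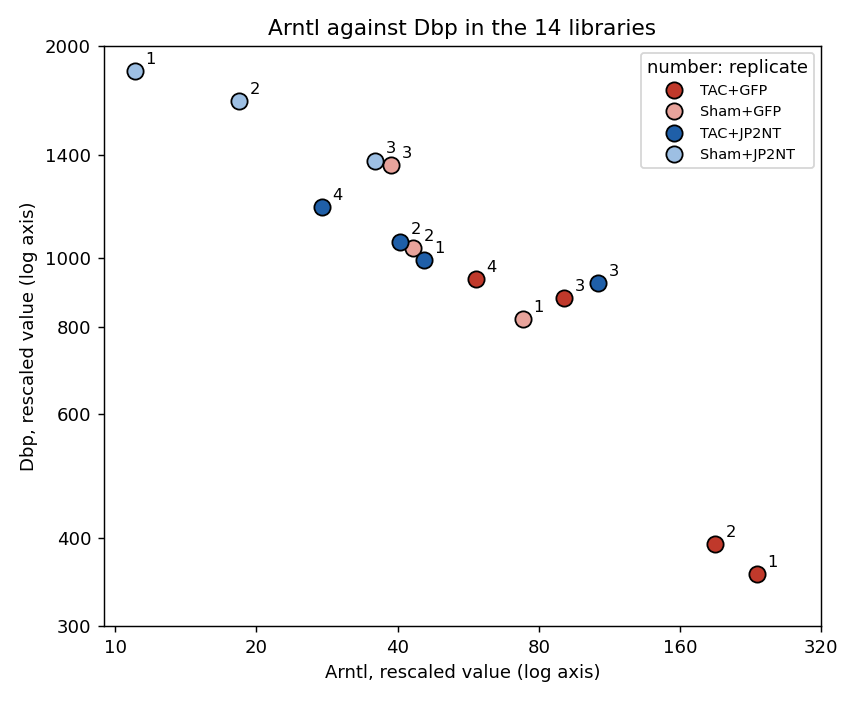
Rescaled value of Arntl (x axis, log scale) against Dbp (y axis, log scale) in the 14 libraries, coloured by group and numbered by replicate. Dbp is lower where Arntl is higher, from Sham+JP2NT replicate 1 (Arntl 11.0, Dbp 1845) to TAC+GFP replicate 1 (Arntl 233, Dbp 356).

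**Figure D4:**
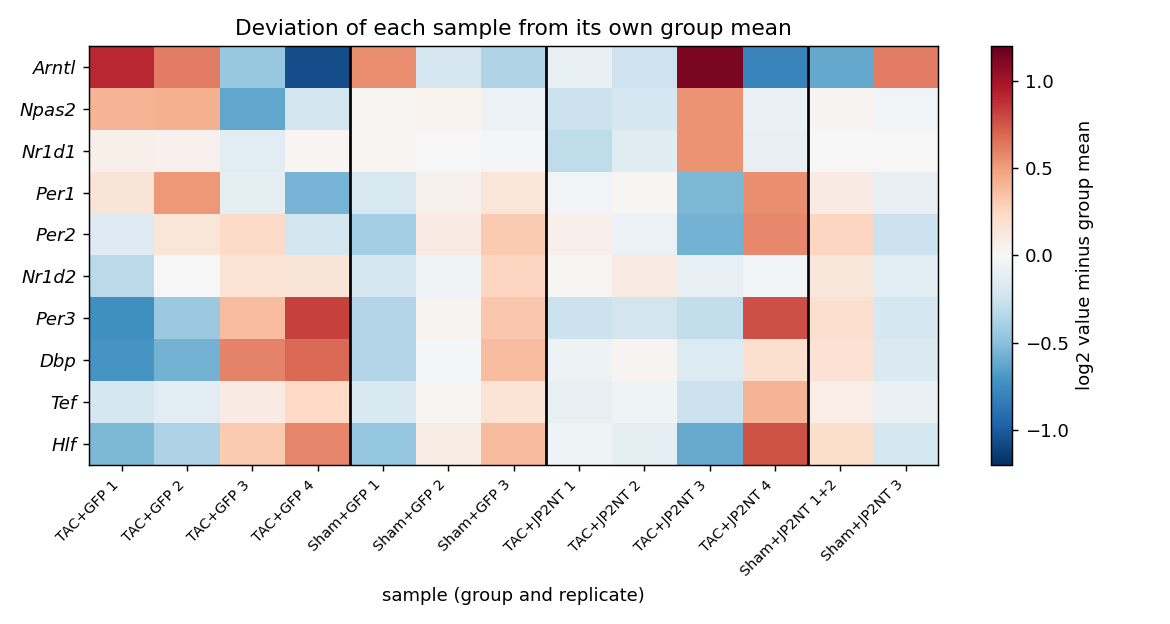
Log2 value minus the mean of the sample's own group (colour) for the 10 genes (rows) in the 13 samples (columns). Samples with high Arntl, such as TAC+GFP replicate 1 and TAC+JP2NT replicate 3, are low in Hlf, and samples with low Arntl, such as TAC+GFP replicate 4 and TAC+JP2NT replicate 4, are high in Per3 and Hlf.

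Arntl and Dbp normally change several-fold over a day, and in opposite directions. As no source used here gives the hour at which each heart was taken, a difference between groups in the time of harvest cannot be told apart from a difference due to surgery or virus in these genes. Libraries that had the same surgery and virus also differed. In Sham+GFP replicates 1 and 3, Arntl stood at 73.9 and 38.6, Dbp at 819 and 1358 and Hlf at 301 and 540.1. In the same libraries Nr1d1 stood at 1639.8 and 1589 and Per1 at 424 and 537. Per1, whose libraries did not overlap between TAC+GFP and Sham+GFP, had r = -0.08 with Arntl over the 13 samples. That value pools TAC+GFP, where Per1 ran with Arntl, and Sham+GFP and TAC+JP2NT, where Per1 ran against Arntl. The part of harvest time in any of these values was not tested.

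Among 18 other clock components, overload came with 6 calls upward and 2 downward under GFP (median log2 fold change 0.11), and with 2 upward and 2 downward under JP2NT (median 0.11). Neither share is above the background of its comparison. Between TAC+JP2NT and TAC+GFP, 0 were called higher and 1 lower (median -0.07), against 2.75% and 3.40% of all genes tested. Clock, the partner of BMAL1, rose with overload under both viruses. It averaged 682 ± 81.6 in TAC+GFP and 308 ± 14.4 in Sham+GFP (log2 1.14, adjusted p = 5.97e-05), and 546 ± 129 in TAC+JP2NT and 296 ± 32.1 in Sham+JP2NT (log2 0.85, adjusted p = 0.00357). Bhlhe40, a repressor of E-box genes that also responds to stress, rose in both as well, by 0.95 under GFP (adjusted p = 5.18e-05) and by 0.49 under JP2NT (adjusted p = 0.022). Ciart, a repressor of the CLOCK and BMAL1 pair, was 1.00 higher on the log2 scale in TAC+GFP (adjusted p = 0.0156) and 0.51 under JP2NT (adjusted p = 0.296). Fbxl21, which encodes a ubiquitin ligase subunit for cryptochromes, was called under GFP from values of 7.48 to 21.6 in TAC+GFP and 0 to 3.80 in Sham+GFP, too low to weigh its log2 difference of 2.54. Cry2, a cryptochrome repressor, fell in both (-0.49 and -0.68, adjusted p = 0.00337 and 0.00199).

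Among 10 clock-controlled output genes, overload came with 1 call upward and 6 downward under GFP (median -0.29), and with 3 downward under JP2NT (median -0.33), where 48.1% and 31.9% of all genes tested were called (24.8% and 15.8% lower). Between TAC+JP2NT and TAC+GFP, 3 were higher (median 0.14), against 2.75% of all genes tested. Kcnip2, a subunit of transient outward potassium channels whose rhythm in mouse heart runs through KLF15, averaged 1121 ± 102 in TAC+GFP and 2154 ± 170.0 in Sham+GFP (log2 -0.94, adjusted p = 3.2e-06), and fell by 0.82 under JP2NT (adjusted p = 0.000139). Klf15 itself was at -0.16 and -0.37 and was not called. Alas1, the first enzyme of haem synthesis and a PAR bZIP target in mouse liver, fell by 0.67 under GFP (adjusted p = 0.000107) and stood at -0.11 under JP2NT (adjusted p = 0.513). It averaged 2816 in TAC+GFP and 3120 in TAC+JP2NT, beside 4502 in Sham+GFP and 3394 in Sham+JP2NT. The sham groups thus lay further apart (log2 -0.42, adjusted p = 0.998) than the TAC groups (0.15, adjusted p = 0.386). Usp2, a clock-driven deubiquitinase, fell by 0.57 under GFP (adjusted p = 0.000815) and Pdxk, the pyridoxal kinase and another PAR bZIP target in mouse, by 0.56 (adjusted p = 0.00105). Both were higher in TAC+JP2NT than in TAC+GFP, by 0.41 and 0.46 (adjusted p = 0.0336 and 0.0225). Lonrf3 was 0.67 higher under GFP (adjusted p = 0.0286) at values of 14.9 to 30.4.

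Of 10 genes that follow systemic cues (glucocorticoids, feeding and body temperature), overload came with 5 calls upward and 1 downward under GFP (median 0.60), and with 4 upward and 1 downward under JP2NT (median 0.47). These counts stand beside 48.1% and 31.9% of all genes tested (23.3% and 16.1% higher). Between TAC+JP2NT and TAC+GFP, 0 were called higher and 1 lower (median -0.36), against 2.75% and 3.40% of all genes tested. Fkbp5, a glucocorticoid-induced chaperone partner, averaged 1224 ± 526 in TAC+GFP and 332 ± 49.8 in Sham+GFP (log2 1.76, adjusted p = 0.000169), and 674 ± 36.9 in TAC+JP2NT and 256 ± 39.2 in Sham+JP2NT (log2 1.40, adjusted p = 0.00504). Tsc22d3, another glucocorticoid-induced gene, rose by 0.75 and 0.82 (adjusted p = 0.00337 and 0.00824). Klf9, also induced by glucocorticoids, stood at 0.04 and 0.06 and was not called (adjusted p = 0.839 and 0.821). Rbm3, a cold-inducible RNA-binding protein, rose by 1.47 under GFP (adjusted p = 1.27e-06) and by 0.47 under JP2NT (adjusted p = 0.0256). Cirbp, the other cold-inducible RNA-binding protein of the list, stood at -0.06 under GFP (adjusted p = 0.85) and fell by 0.85 under JP2NT (adjusted p = 0.0219), the downward call there. The heat shock genes disagreed. Hspa1b rose by 2.0 and 2.18 (adjusted p = 0.0131 and 0.0256), and its near-identical copy Hspa1a makes its count uncertain. Hsph1 fell by 1.36 under GFP (adjusted p = 0.000185) and stood at 0.27 under JP2NT (adjusted p = 0.436). It averaged 637 in TAC+GFP and 1633 in Sham+GFP, and 991 in TAC+JP2NT and 863 in Sham+JP2NT. These values stand beside the rise of Per1, which glucocorticoids also induce; their part in it was not tested.

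**Figure D5:**
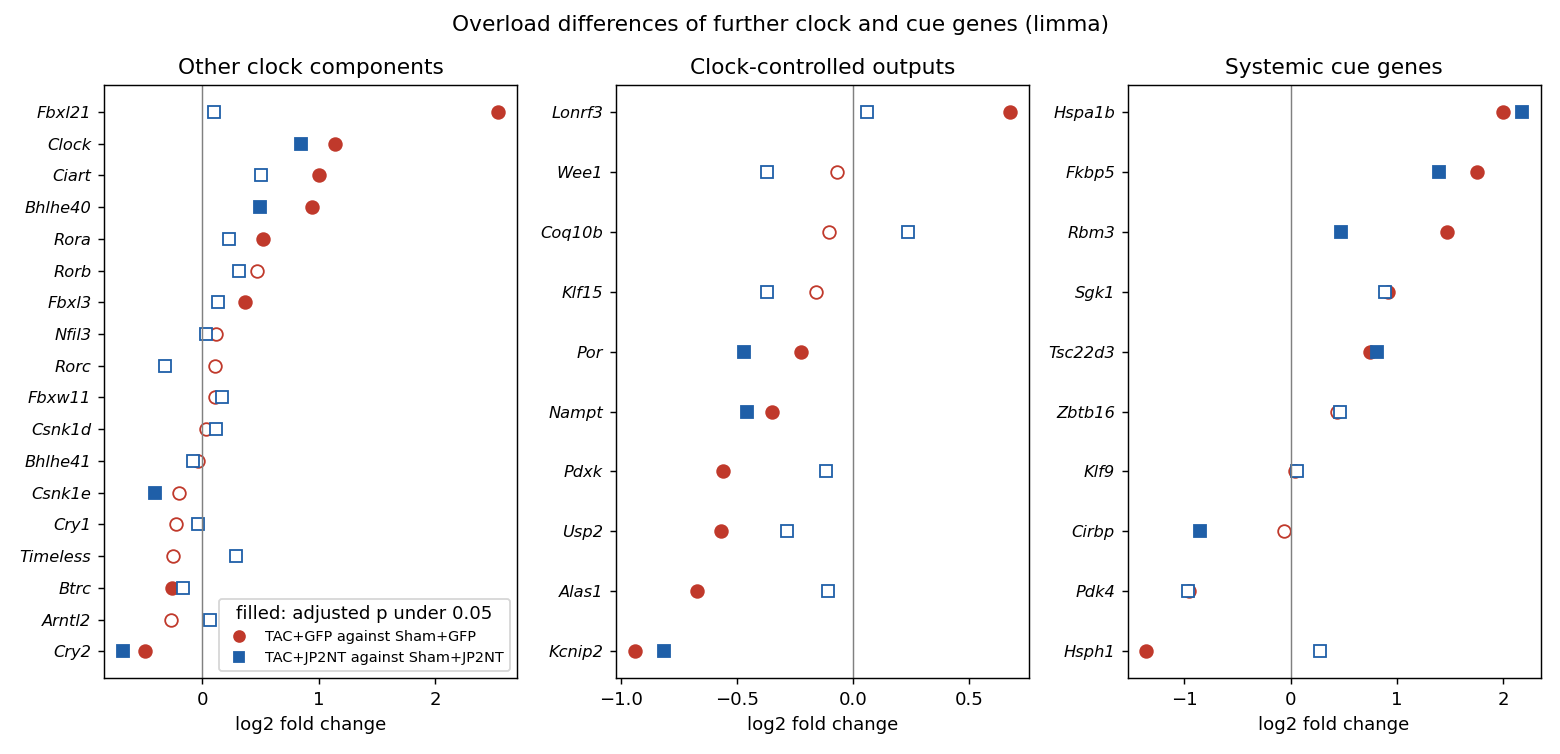
Log2 fold change (x axes) of the further clock components, clock-controlled outputs and systemic cue genes in the 2 overload comparisons, genes ordered by the value under GFP; filled symbols passed an adjusted p under 0.05. Clock and Bhlhe40 are filled right of 0, and Cry2 and Kcnip2 left of 0, under both viruses.

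Outside these genes, those whose deviations from the group means were most like those of Arntl, among 13202 genes over 13 samples, were Gab2 (r = 0.98), Parvb (r = 0.97), Col3a1 (r = 0.93), Col4a2 (r = 0.93) and Col5a2 (r = 0.93). The likeness shows in the libraries: Col3a1, a fibrillar collagen, had 7926, 8895, 6101 and 4921 in TAC+GFP, against 3773, 3331 and 3100.1 in Sham+GFP, and 4147, 4342, 5898 and 2877 in TAC+JP2NT, against 2332, 2470 and 3016 in Sham+JP2NT, so its high and low libraries within groups were largely those of Arntl. Most like Dbp were Ubxn10 (r = 0.94), Rbm12b1 (r = 0.92), Rbks (r = 0.91), 2810021J22Rik (r = 0.91) and Ggnbp2 (r = 0.91). None of the other clock components was among these genes.

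Markers of other cells also differed with overload, in a comparison where 48.1% of all genes tested were called (23.3% higher and 24.8% lower). In the overload comparison under GFP, 3 of 5 fibroblast markers were higher, 4 of 5 pericyte and smooth muscle markers lower, 1 of 5 endothelial markers higher and 3 lower, and 1 of 5 macrophage markers lower. Of the atrial markers 1 of 4 was higher, and of the cardiomyocyte markers 1 of 8 was higher and 4 lower. Summed values were 8912 to 12009 in TAC+GFP against 7042 to 7899 in Sham+GFP libraries for fibroblast markers. They were 8822 to 10638 in TAC+GFP against 13998 to 15020 in Sham+GFP for pericyte and smooth muscle markers, and 1632 to 1979 in TAC+GFP against 1796 to 1893 in Sham+GFP for macrophage markers. Of the lymphocyte markers Cd3e and Cd3g reached at most 4.79 and 4.98 in any library and were at 0 in some, and of the adipocyte markers Adipoq reached at most 47.7. The part of cell composition in the differences of the 10 genes was not tested.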

How the data were processed

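Per the submitters' processing notes, the tools were FastQC 1.0.0, Salmon and STAR 2.6.1a, and the build mm10; no source used here names the annotation or the scaling tool. Each deposited value is a signal, a gene count divided by a library's scale factor. Median-of-ratios factors came out equal among the 7 GFP and among the 7 JP2NT libraries but not between the sets. The commonest low value was taken as 1 read to estimate depth. Values were rescaled jointly with the trimmed mean of M-values, unweighted (30% of ratios and 5% of levels trimmed), 1 was added and log2 taken; a fold change on this scale understates that of low genes. Tests were two-sided limma-trend (limma 3.58.1, R 4.3.3; 9 residual and 5.71 prior degrees of freedom), with 1 spread for all groups, adjusted by Benjamini-Hochberg over all genes tested. Errors of log2 fold changes are SE. If libraries are not separate mice, p-values measure technical spread. The fit was tested on simulated data. The 10 genes, further lists and alternatives were chosen with earlier results of these data known. Named genes beyond the 10 were the called members of each list, up to 4 by size of change, and for Arntl and Dbp the 5 genes most like each; Cry2, Tsc22d3, Klf9, Cirbp, Pdxk, Klf15 and individual cell-type markers were added after their values were seen. Gene positions are from GENCODE M21.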

Additional observations from a re-analysis of the deposited data

Results flagged for a closer look

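In groups of 4 libraries, a library was singled out when its gap to the nearest other, divided by the range of the group on the log2 scale, exceeded Dixon's 95% critical value. Of 20 checks (10 genes in TAC+GFP and in TAC+JP2NT) 2 exceeded it, where chance gives about 1 in 20. Per3 in TAC+JP2NT gave 0.928, because replicate 4 stood at 602 and the other libraries at 287 to 303. Nr1d1 in TAC+GFP gave 0.85, because replicate 3 stood at 1148 and the others at 1288 to 1314.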

How the results depend on the processing

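In the 24 alternatives no called difference of the 10 genes reversed. Of 10 genes, 6 were called for TAC+GFP against Sham+GFP, 1 for TAC+JP2NT against Sham+JP2NT and 3 for TAC+JP2NT against TAC+GFP; leaving out each library in turn gave 3 to 8, 0 to 3 and 0 to 6. When TAC replicates 1 and 2 were averaged within each virus, 3, 1 and 0 were called. With 14 separate libraries the count for TAC+JP2NT against Sham+JP2NT was 4, with only the compared groups 2 and with a spread per group 3. For TAC+JP2NT against TAC+GFP it was 1 with the deposited values as they are and 1 with no filter, and 0 with only the compared groups or a spread per group (limma; 6 and 7 at an unadjusted p under 0.05). The cause was not tested. Between the sham groups and for the interaction 0 genes were called in every alternative run (limma; 0 to 7 and 0 to 1 at an unadjusted p under 0.05). Equal replicate numbers did not pair the libraries (r of same-numbered libraries -0.17 to 0.07), and with a replicate block and 14 separate libraries 6, 5 and 5 genes were called. Over all genes, leaving out single libraries moved the count for TAC+JP2NT against TAC+GFP from 812 to between 270 and 1077, for TAC+JP2NT against Sham+JP2NT from 4221 to between 1894 and 5015, and for the interaction from 10 to between 0 and 50. For TAC+JP2NT against TAC+GFP it was 158 with averaged TAC replicates, 181 with only the compared groups, 412 with a spread per group and 1417 with the deposited values as they are; for the interaction it was 127 with 14 separate libraries, 77 with the block, 76 with a spread per group, 6 with no filter and 4 with averaged TAC replicates. Between the sham groups it was 2 with only the compared groups. Without Sham+JP2NT replicate 3 its group is 1 sample, assumed to vary like the others. Depth limits Arntl in its lowest library, at about 9.09 reads.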
